A study of Mus musculus with 20 samples.

Results

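The mitosis and kinetochore genes described here are 44 genes named from knowledge of cell division, of 25746 genes in the deposited count table. The choice was made with earlier results of these data known. They were found by symbol, and all 44 had a row. Chromatin was examined at the 93 merged ATAC-seq regions, of 143334 in all, that lie within 1 kb of the span of 1 of these genes. By role they are 4 genes of cyclins and the mitotic cyclin-dependent kinase, 5 of mitotic kinases and the spindle checkpoint, 3 of the chromosomal passenger complex, and 3 of anaphase-promoting complex partners and mitotic entry. The others are 6 genes of the centromere and kinetochore, 9 kinesins, 5 spindle microtubule proteins, 2 cytokinesis genes, 5 genes of chromosome structure together with the proliferation antigen Mki67, and 2 transcription factors.

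Entry into mitosis is driven by the kinase Cdk1 bound to A- and B-type cyclins, and exit follows when the anaphase-promoting complex, with its activator Cdc20, marks cyclin B for destruction. Between these steps kinesin motors and their partners build the spindle, the kinetochore ties each chromosome to it, and the checkpoint kinases delay anaphase until every kinetochore is attached. Most of these genes are transcribed in the G2 and M phases of cycling cells and held low in resting cells, and in the adult heart fibroblasts are largely resting until an injury such as myocardial infarction.

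The cells were mouse cardiac fibroblasts of the Tcf21 lineage, marked by eGFP through a tamoxifen-inducible MerCreMer and sorted from digested whole hearts against a gate set on WT cells without eGFP. Tcf21 is a transcription factor gene of resident cardiac fibroblasts. All groups, uninjured hearts included, received tamoxifen at 75 mg/kg/day for 5 days, and the RNA came from 10000 sorted cells. There were 5 groups, with 2 RNA-seq and 2 ATAC-seq libraries each: uninjured hearts, and infarcted hearts taken at day 3, at day 7, at week 2 or at week 4. Age and strain are not in the labels used here, a lineage mark is kept by a cell whatever it later becomes, and the sorted cells were pooled over the whole heart rather than taken from the infarct alone.

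The control regions of these genes are known for 2 short elements: the CCAAT box, bound by the factor NF-Y, and the cell cycle genes homology region (CHR), with the core TTTGAA or TTTAAA. The CHR is bound by the MuvB core, which represses in resting cells as part of the DREAM complex and activates in G2 and M with the products of Mybl2 and Foxm1. The promoters of 5 members, whose products set mitotic entry, are shown so that these elements can be seen. They are RefSeq sequences of build GRCm38.p6, each from 250 bases before to 50 bases after the gene start, on the strand of the gene and 5′ to 3′. Capitals mark CCAAT (or ATTGG, the same box on the other strand), TTTGAA and TTTAAA.
Cdk1, chr10:69352863-69353162, minus strand: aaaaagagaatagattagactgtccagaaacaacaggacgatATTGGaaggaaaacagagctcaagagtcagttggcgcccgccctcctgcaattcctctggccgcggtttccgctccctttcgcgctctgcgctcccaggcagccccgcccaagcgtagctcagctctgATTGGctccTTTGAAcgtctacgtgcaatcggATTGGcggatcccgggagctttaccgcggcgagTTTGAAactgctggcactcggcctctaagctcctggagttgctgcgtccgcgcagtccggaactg
Ccnb1, chr13:100786437-100786736, minus strand: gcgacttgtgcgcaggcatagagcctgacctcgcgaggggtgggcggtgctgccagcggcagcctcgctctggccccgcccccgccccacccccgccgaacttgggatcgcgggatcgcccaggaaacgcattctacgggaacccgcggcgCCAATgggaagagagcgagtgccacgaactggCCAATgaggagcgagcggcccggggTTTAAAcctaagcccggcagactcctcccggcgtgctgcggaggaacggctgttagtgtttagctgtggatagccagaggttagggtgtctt
Ccnb2, chr9:70421505-70421804, minus strand: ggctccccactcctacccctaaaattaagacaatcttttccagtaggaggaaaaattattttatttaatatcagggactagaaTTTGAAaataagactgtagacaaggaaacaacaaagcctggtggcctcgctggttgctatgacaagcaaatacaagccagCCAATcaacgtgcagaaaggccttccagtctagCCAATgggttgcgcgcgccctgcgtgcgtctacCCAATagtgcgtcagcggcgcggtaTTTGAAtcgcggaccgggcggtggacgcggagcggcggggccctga
Plk1, chr7:122159185-122159484, plus strand: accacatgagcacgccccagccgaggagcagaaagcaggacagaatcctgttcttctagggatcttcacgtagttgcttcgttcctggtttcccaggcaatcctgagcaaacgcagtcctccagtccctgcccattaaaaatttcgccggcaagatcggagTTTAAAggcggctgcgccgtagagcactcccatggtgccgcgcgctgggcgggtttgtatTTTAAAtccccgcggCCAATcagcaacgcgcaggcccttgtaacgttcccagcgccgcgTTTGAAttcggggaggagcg
Aurka, chr2:172370521-172370820, minus strand: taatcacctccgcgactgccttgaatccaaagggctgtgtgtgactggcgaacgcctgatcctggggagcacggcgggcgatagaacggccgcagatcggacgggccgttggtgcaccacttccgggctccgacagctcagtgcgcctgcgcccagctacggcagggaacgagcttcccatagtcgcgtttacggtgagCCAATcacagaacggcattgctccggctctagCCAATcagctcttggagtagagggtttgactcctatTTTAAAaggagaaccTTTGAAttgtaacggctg

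RefSeq promoters were matched for 38 of the 44 members by symbol, and each motif was searched on both strands. TTTGAA was found in 31 of the 38 promoters (81.6%), against 18.1% of the promoters of all 27025 symbols, 12.2% of those of genes that entered the RNA test and 12% of those whose start had a peak in all 10 ATAC-seq lists. TTTAAA was found in 9 (23.7%, against 13.2% of all), and 34 (89.5%) had either core, against 27.8% of all, 19.6% of genes in the RNA test and 19.3% of starts with a peak in every list. A CCAAT box was found in 28 (73.7%, against 37.9% of all), and 2 or more boxes in 20 (52.6%, against 12.2%). A CCAAT box together with a CHR core was found in 27 promoters (71.1%), against 10.9% of all promoters, 7.9% of those in the RNA test and 7.79% of those with a peak in every list. Ube2c and Top2a had the most boxes, with 6 each, and Hmmr had 5. Counted from the gene start, the median position of the 66 CCAAT matches was −69.5 bases and that of the 41 TTTGAA matches 2 bases. No CHR core of either spelling was found in the windows of Nuf2, Nusap1, Bub1 and Mybl2, and the window of Bub1 held 2 CCAAT boxes.

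Other elements were searched the same way. The E2F element GGCGGGAA was found in 0 of the 38 windows, against 2.24% of all promoters. TTCGCGC, another spelling of an E2F element, was found in 2, those of Cdk1 and Hmmr (5.26%, against 1.59%), and the TATA box TATAAA in 1, that of Kif2c (2.63%, against 14.2%). For GGCGGGAA, TTCGCGC and TATAAA the shares among genes in the RNA test were 4.02%, 2.91% and 7.58%. Among starts with a peak in every list they were 3.87%, 2.94% and 7.29%. In all 38 windows 1 pair of matches of different motifs overlapped. These are matches of letters within a fixed window, not measured binding sites. The window of Kif2c lies at a tabled start without a peak within 1 kb in any ATAC-seq list, so it may not be the promoter in use.

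**Figure D1:**
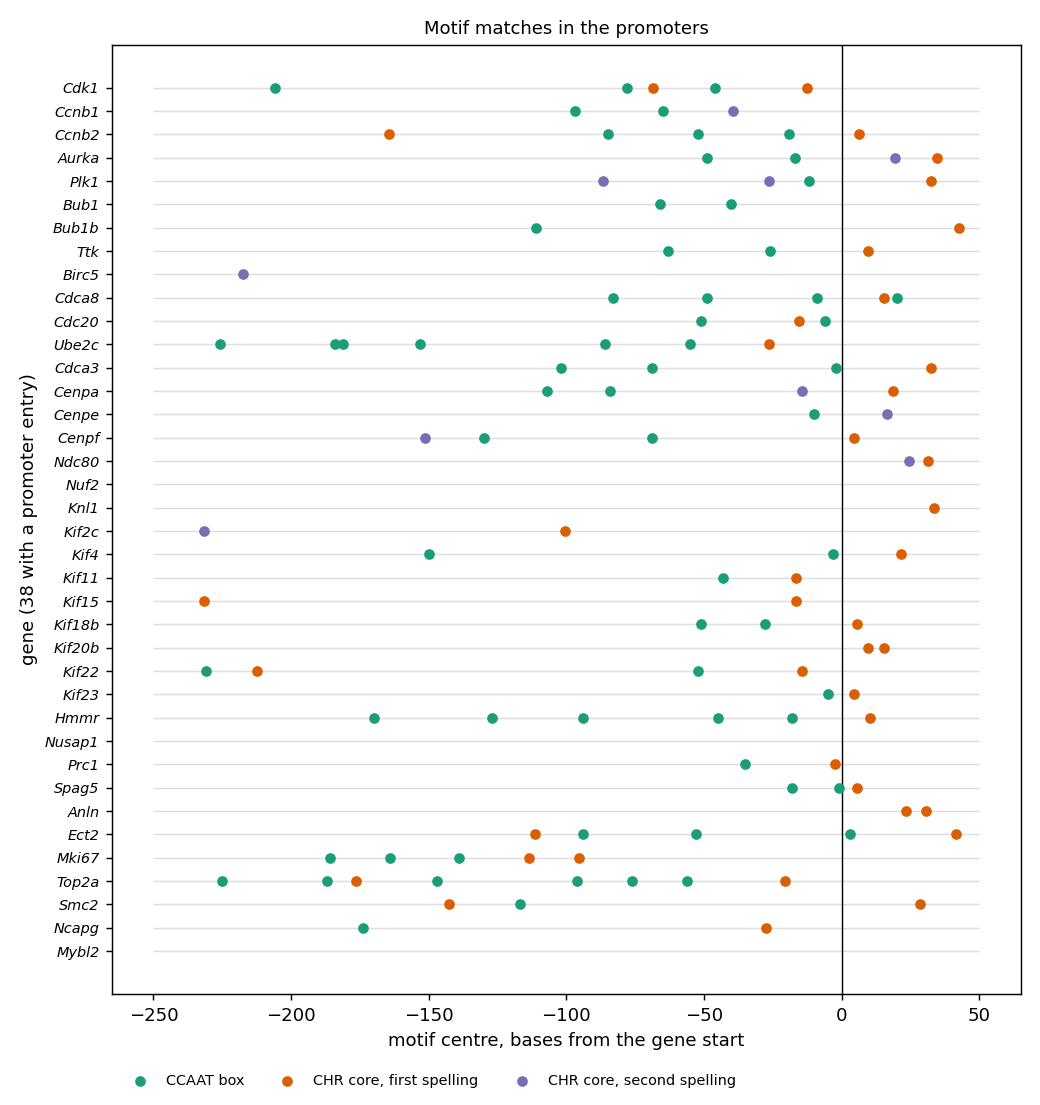
Matches of the CCAAT box (green), the CHR core TTTGAA (first spelling, orange) and the CHR core TTTAAA (second spelling, purple) in the RefSeq promoters of 38 mitosis and kinetochore genes, with the distance of the motif's centre from the gene start in bases on the horizontal axis and the gene on the vertical axis. Most CCAAT boxes sit before the start (median position −69.5 bases), and most TTTGAA matches lie close to it (median 2 bases), while 3 genes, Nuf2, Nusap1 and Mybl2, show no match.

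Each RNA library had between 16397211 and 21043997 expected counts. Within a group the log CPM of the 2 libraries correlated across genes at 0.882 to 0.937 (Pearson). CPM is a count scaled to a common library total after TMM scaling, and levels of different genes are not compared since no transcript lengths were used. The labels do not state whether both libraries of a group stem from different animals. The p-values therefore reflect only how far these samples scatter, which can be technical. The Y-linked genes Ddx3y, Eif2s3y and Uty summed to 0 to 0.538 CPM in 5 libraries (both uninjured ones, day 3 replicate 2, day 7 replicate 1 and week 4 replicate 1) and to 121 to 419 CPM in the rest. Sex and injury therefore cannot be told apart between uninjured and week 2, whereas the 2 day 3 libraries differ in it. All 12 fibroblast markers were detected in every group, and their sum was 62700 and 64200 CPM in uninjured libraries, 38600 and 24000 CPM at day 3, 43500 and 52300 CPM at day 7, 42800 and 32200 CPM at week 2 and 67800 and 64600 CPM at week 4. At day 3, when the mitosis genes were highest, 4 of the 12 were higher and 5 lower than in uninjured hearts by edgeR. Of all genes tested 7.39% were higher and 4.4% lower.

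Summed over the 44 genes, the level was 331 and 128 CPM in the uninjured libraries, 3720 and 4550 CPM at day 3, 909 and 1110 CPM at day 7, 252 and 298 CPM at week 2, and 192 and 199 CPM at week 4. The group means were 230 ± 144 CPM before injury, 4130 ± 587 CPM at day 3, 1010 ± 141 CPM at day 7, 275 ± 32.8 CPM at week 2 and 196 ± 5.17 CPM at week 4 (SD, n = 2 each). Day 3 thus stood at 18 times the uninjured mean, or at 32.2 times without uninjured replicate 1 and 12.5 times without uninjured replicate 2, and day 7 at 24.4% of the day 3 mean. The week 2 and week 4 libraries lay within the range of the uninjured libraries. As a share of all counts, these genes took 0.358% and 0.46% at day 3, and 0.0129% to 0.108% in the other libraries.

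The day 3 peak held gene by gene. In all 44 members both day 3 libraries lay above each of the other 8 libraries, which holds for 11.8% of the 14968 genes tested. Each role group was also highest at day 3 as a sum. The 9 kinesins together had 39.5 and 11.6 CPM before injury, 547 and 719 CPM at day 3 and 130 and 185 CPM at day 7. The 6 centromere and kinetochore genes had 40.6 and 9.54 CPM, then 431 and 581 CPM, then 87.4 and 148 CPM. The 2 transcription factor genes were near their uninjured level by day 7: their sum was 1.71 and 1.66 CPM before injury, 32.2 and 24.6 CPM at day 3 and 2.21 and 1.51 CPM at day 7. In bulk RNA, more cells with these transcripts and more of the transcripts per cell cannot be told apart.

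**Figure D2:**
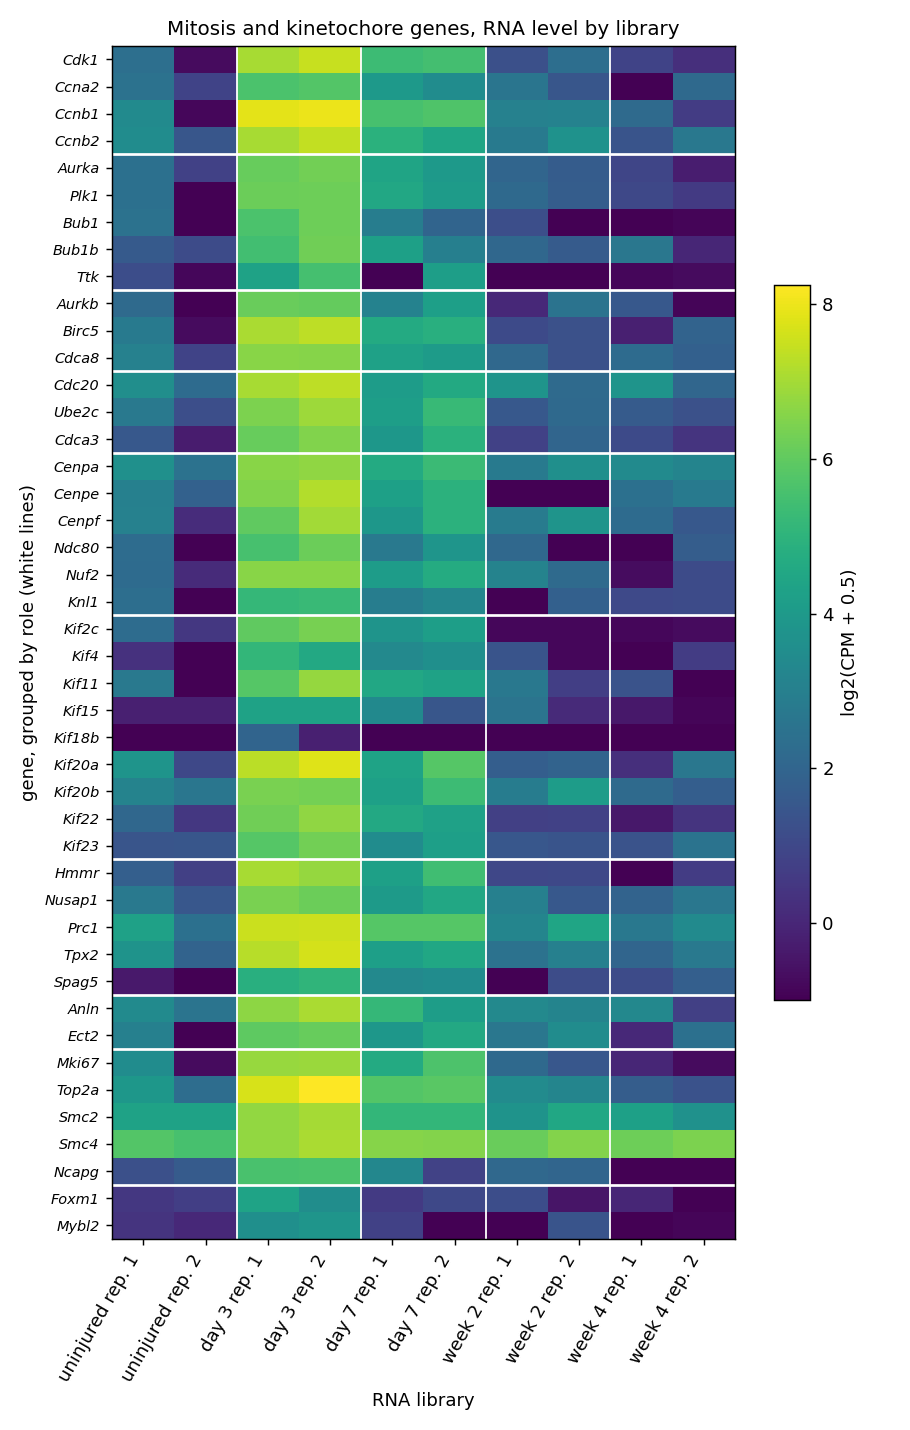
RNA level of each of the 44 genes (rows, grouped by role between white lines) in each of the 10 RNA libraries (columns), as log2(CPM + 0.5), from dark (low) to yellow (high). The 2 day 3 columns are the brightest of every row, the 2 day 7 columns come next in most rows, and Smc4 shows the least contrast between day 3 and uninjured.

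The first comparison asks which of these genes changed 3 days after infarction. With edgeR, 29 of the 43 members that passed the filter on low counts were higher at day 3 than in uninjured hearts at an adjusted p below 0.05, and 0 were lower, against 7.39% of all genes tested that were higher. At an unadjusted p under 0.05 edgeR had 39 higher and 0 lower, and DESeq2 called 35 higher and 0 lower. The median log2 fold change of the 43 was 4.60, from 1.26 to 7.77, against −0.02 over all genes. All 43 had both day 3 libraries above both uninjured libraries, as had 29.5% of all genes. The 14 members not called include some of the best known. In the accounts by role below, rose means called at this adjusted p, where 7.39% of all genes tested were higher. Uninjured replicate 1 was above replicate 2 in 38 members, below it in 4 and equal in 2, and 10 members had 0 counts in replicate 2.

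Among the cyclins and their kinase, Cdk1 rose. The mitotic cyclin-dependent kinase gene (chromosome 10, 69335146 to 69352938) had 4.74 and 0.107 CPM in uninjured hearts and 133 and 179 CPM at day 3, with 40.2 and 44.7 CPM at day 7, 1.89 and 4.56 CPM at week 2 and 1.30 and 0.682 CPM at week 4. Its log2 fold change at day 3 was 6 ± 1.17 (SE; edgeR adjusted p = 0.014). Ccnb2, 1 of the 2 B-type cyclin genes, also rose, from 10.9 and 2.3 CPM to 131 and 168 CPM (log2 fold change 4.51 ± 0.74, adjusted p = 0.0039). The other B-type cyclin gene, Ccnb1, had 10.4 and 0.0536 CPM before injury and 232 and 253 CPM at day 3, groups that lie far apart, but did not pass (adjusted p = 0.053). Ccna2, the A-type cyclin gene of S phase and early mitosis, had 5.17 and 1.34 CPM and then 49.4 and 54.4 CPM (adjusted p = 0.097). Its reads are uncertain, since its span overlaps that of Exosc9 and 9 of its 10 counts are not whole.

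Of the mitotic kinases, Aurka and Plk1 rose, and so did Bub1b, which encodes the checkpoint protein BubR1. Aurka, whose kinase acts at the spindle poles, went from 4.90 and 1.23 CPM to 67.6 and 77.6 CPM (log2 fold change 4.56 ± 0.72, edgeR adjusted p = 0.0018). Plk1, a kinase gene needed from mitotic entry to cytokinesis, had 4.90 and 0 CPM and then 72.0 and 74.3 CPM (adjusted p = 0.046). Bub1b went from 2.61 and 1.66 CPM to 43.5 and 74.6 CPM (adjusted p = 0.009). The checkpoint kinase genes Bub1 and Ttk did not pass. Bub1 had 5.06 and 0 CPM before injury and 49.7 and 73.2 CPM at day 3 (adjusted p = 0.18), and Ttk 1.76 and 0.0536 CPM against 19.6 and 45 CPM (adjusted p = 0.22).

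In the chromosomal passenger complex, which corrects faulty attachments and later steers cytokinesis, Birc5 (survivin) and Cdca8 (borealin) rose. Birc5 had 6.34 and 0.107 CPM in uninjured hearts and 134 and 159 CPM at day 3 (edgeR adjusted p = 0.047). Cdca8 had 7.84 and 1.34 CPM and then 98.0 and 95.4 CPM (adjusted p = 0.002). The kinase gene of the complex, Aurkb, had 4.05 and 0 CPM and then 69.2 and 66.8 CPM and was not called (adjusted p = 0.17). All 3 partners of the anaphase-promoting complex and mitotic entry rose: Cdc20, its activator, the ubiquitin-conjugating enzyme gene Ube2c and Cdca3. Cdc20 went from 11.5 and 4.18 CPM to 132 and 161 CPM (log2 fold change 4.22 ± 0.77, adjusted p = 0.007), and its span overlaps that of Elovl1. Ube2c went from 6.24 and 1.82 CPM to 85.5 and 118 CPM (adjusted p = 0.00071). Cdca3 went from 2.40 and 0.322 CPM to 68.1 and 91.0 CPM (log2 fold change 5.86 ± 0.90, adjusted p = 0.002).

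At the centromere and kinetochore 4 of 6 genes were called higher at day 3. Cenpa, the centromeric histone H3 variant, went from 11.9 and 5.15 CPM to 97.7 and 104 CPM (log2 fold change 3.57 ± 0.48, edgeR adjusted p = 0.00077). Cenpe, a kinetochore motor gene, went from 7.62 and 3.16 CPM to 89.5 and 145 CPM (log2 fold change 4.44 ± 0.53, adjusted p = 0.00058). Cenpf and Nuf2, the latter a subunit of the microtubule-binding Ndc80 complex, rose as well (log2 fold changes 4.47 ± 0.99 and 5.33 ± 1.04). Ndc80 itself had 4.37 and 0 CPM and then 46.2 and 71.6 CPM (adjusted p = 0.28), and Knl1, the scaffold that binds the checkpoint proteins, 4.64 and 0 CPM and then 35.8 and 38 CPM (adjusted p = 0.24). Both lacked counts in uninjured replicate 2.

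Of the 9 kinesin genes 8 were tested and 5 were called higher: Kif2c, Kif15, Kif20b, Kif22 and Kif23. Kif23, a motor of the central spindle, went from 2.19 and 2.3 CPM to 56.3 and 77.7 CPM (log2 fold change 4.89 ± 0.58, edgeR adjusted p = 0.00042). Kif20b went from 8.37 and 5.63 CPM to 82.7 and 78.6 CPM, and Kif15, a spindle motor that acts beside Kif11, from 0.373 and 0.375 CPM to 19.6 and 19.7 CPM. Kif22, a chromosome arm motor, went from 3.78 and 0.911 CPM to 75.0 and 106 CPM (5.26 ± 0.68 on the log2 scale, adjusted p = 0.00065). Kif11, the motor that pushes spindle poles apart, had 6.18 and 0 CPM and then 55.3 and 109 CPM (adjusted p = 0.19). Kif20a had 13.5 and 1.5 CPM and then 156 and 222 CPM, with an adjusted p that rounds to 0.05 and did not pass. Its reads are uncertain, since its span overlaps that of Cdc23 and its counts were not whole in any of the 10 libraries. Kif4, which overlaps Pdzd11, had 0.746 and 0 CPM and then 34.7 and 23.5 CPM (adjusted p = 0.07). Kif18b was left out by the filter, with 59 and 7 counts at day 3 (3.5 and 0.388 CPM) and 0 counts in the other 8 libraries. Its day 3 mean was 12.1 times a floor of 3 counts in each uninjured library, and most of that mean came from replicate 1.

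All 5 spindle microtubule genes rose at day 3. Hmmr had 2.99 and 1.18 CPM before injury and 132 and 109 CPM at day 3 (log2 fold change 5.85 ± 0.94, edgeR adjusted p = 0.0037). Tpx2, whose product activates Aurora A on the spindle, went from 12.9 and 3.38 CPM to 151 and 200 CPM (4.43 ± 0.58 on the log2 scale, adjusted p = 0.00073). Prc1, which bundles microtubules in the midzone, went from 19.3 and 4.82 CPM to 180 and 185 CPM (adjusted p = 0.0036). Spag5 had the largest fitted change of the 43, 7.77 ± 1.66 on the log2 scale (adjusted p = 0.011), but its uninjured level rests on 5 counts in replicate 1 and 0 in replicate 2. It had 28.4 and 32.8 CPM at day 3. Nusap1, a microtubule-bundling protein gene, went from 6.13 and 2.36 CPM to 84.4 and 71.3 CPM. Of the cytokinesis genes, Anln rose from 10.2 and 5.36 CPM to 102 and 134 CPM (adjusted p = 0.013), while Ect2 had 7.73 and 0 CPM and then 62.0 and 68.7 CPM (adjusted p = 0.18).

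In chromosome structure 4 of 5 genes were called higher. Top2a, the topoisomerase that untangles sister chromatids (chromosome 11, 98992943 to 99024189), had 14.6 and 4.5 CPM in uninjured hearts, 207 and 305 CPM at day 3, 53.9 and 58.4 CPM at day 7, 10.5 and 8.72 CPM at week 2 and 2.85 and 2 CPM at week 4. Its log2 fold change at day 3 was 4.75 ± 0.50 (edgeR adjusted p = 0.00021), the lowest p of the members. The condensin genes Smc4 and Smc2 had the smallest fitted changes of the 43. Smc4 had 54.5 and 47 CPM before injury and 108 and 135 CPM at day 3 (log2 fold change 1.26 ± 0.25, adjusted p = 0.006), and Smc2 19.6 in both libraries and then 108 and 129 CPM (2.59 ± 0.35, adjusted p = 0.00081). The third condensin gene, Ncapg, went from 1.87 and 2.63 CPM to 48.4 and 49.3 CPM (4.44 ± 0.86, adjusted p = 0.0067). Mki67 (chromosome 7, 135689784 to 135716361), the gene of the Ki-67 antigen, had 10.7 and 0.107 CPM and then 113 and 115 CPM, and did not pass (adjusted p = 0.092). Its uninjured libraries held 200 and 2 counts.

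Foxm1 and Mybl2, the genes of transcription factors known to act at CHR elements, did not pass. Foxm1 had 0.906 and 1.13 CPM before injury and 20.4 and 11 CPM at day 3 (log2 fold change 3.94 ± 1.55, edgeR adjusted p = 0.13). Mybl2 had 0.800 and 0.536 CPM and then 11.8 and 13.6 CPM (4.23 ± 2.12, adjusted p = 0.24). For both genes the 2 day 3 libraries lay above all others.

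The day 3 count was 20 to 30 when each of the 10 libraries was left out in turn, and 17 of the 29 calls were kept every time. Leaving out day 3 replicate 2 lost 9 of the calls, uninjured replicate 2 lost 7, and each of the other 8 libraries 2 to 4; the calls of Plk1 and Birc5 were each lost without any 1 of 8 libraries. The uninjured library in use also moves the median, which was 6.23 on the log2 scale without uninjured replicate 1.

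**Figure D3:**
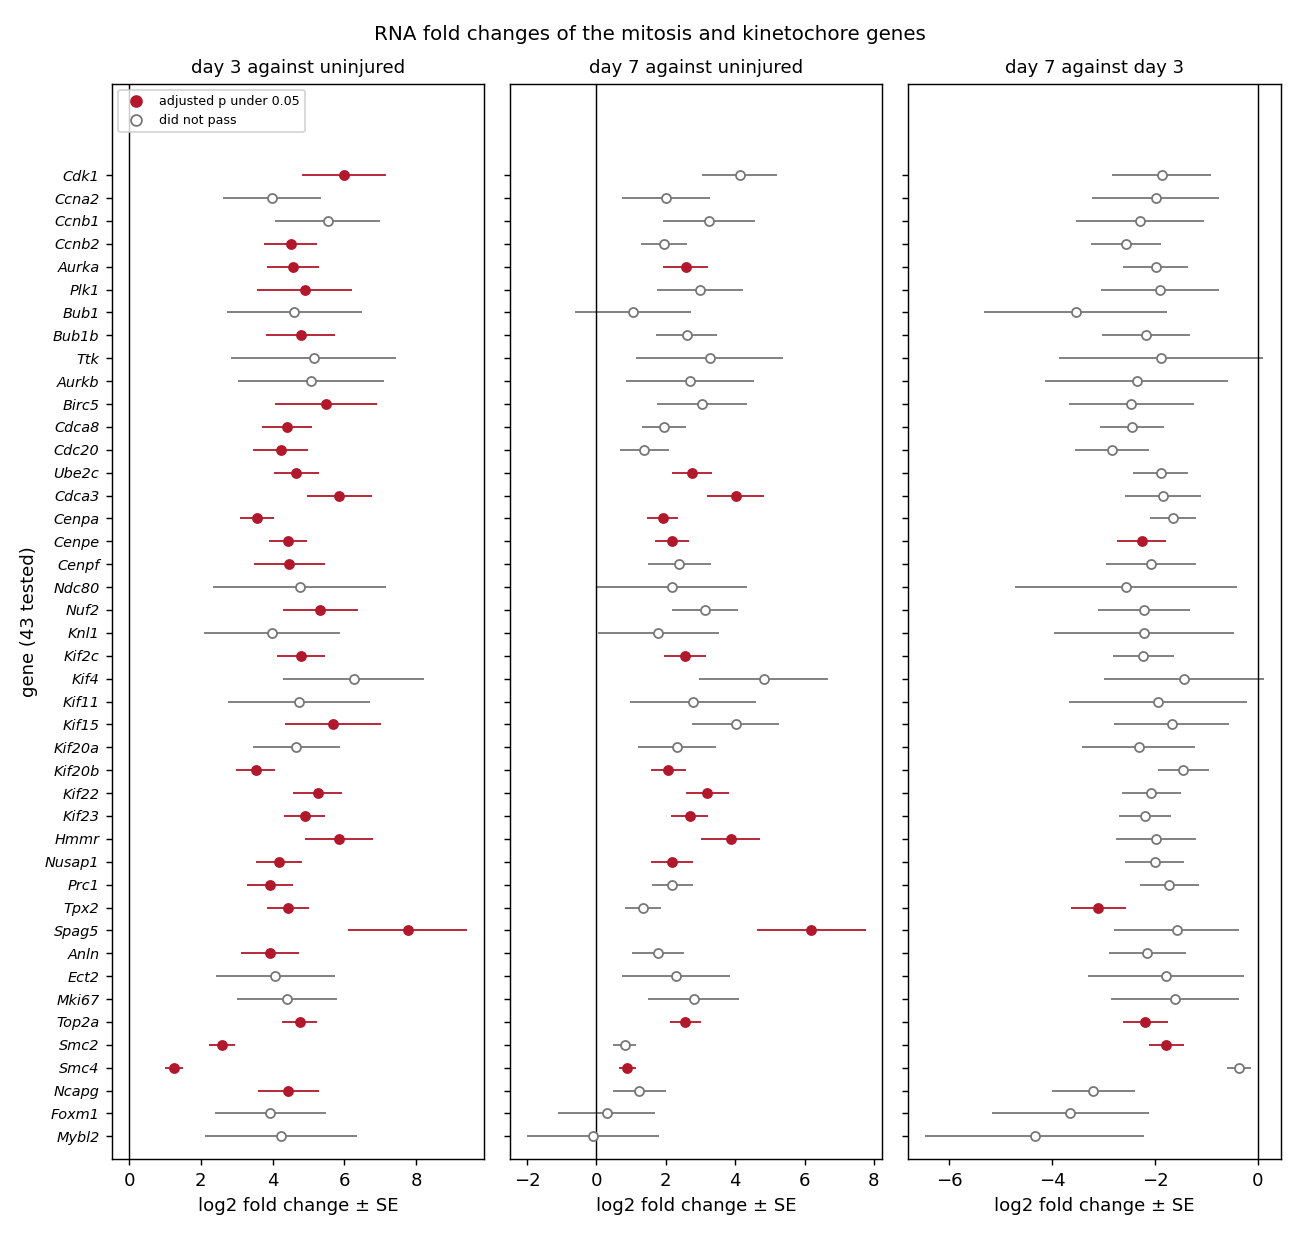
Fitted log2 fold changes with their SE for the 43 tested genes (rows, in the order of the heat map) at day 3 against uninjured, day 7 against uninjured and day 7 against day 3, with filled red points where the edgeR adjusted p was under 0.05. At day 3 all 43 lie above 0 and 29 are filled, and at day 7 against day 3 all 43 lie below 0 and 4 are filled.

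At day 7 the levels were between those of day 3 and of uninjured hearts. Against uninjured, 14 of 43 members were higher by edgeR and 0 lower, against 4.39% of all genes tested that were higher, with a median log2 fold change of 2.39 (from −0.10 to 6.19). At an unadjusted p under 0.05 edgeR had 29 higher and 0 lower, and DESeq2 called 22 higher and 0 lower. In 38 members both day 7 libraries lay above both uninjured libraries, as in 27.3% of all genes. The 14 were Aurka, Ube2c, Cdca3, Cenpa, Cenpe, Kif2c, Kif20b, Kif22, Kif23, Hmmr, Nusap1, Spag5, Top2a and Smc4. Top2a, at 53.9 and 58.4 CPM, was 2.56 ± 0.45 higher on the log2 scale (adjusted p = 0.0063), and Kif22, at 23.8 and 19.3 CPM, 3.19 ± 0.62 (adjusted p = 0.0097). Foxm1 and Mybl2 did not pass, with 0.984 and 1.51 CPM and with 1.23 and 0 CPM (log2 fold changes 0.29 ± 1.41 and −0.10 ± 1.90). The count was 2 without day 7 replicate 2, 3 without uninjured replicate 2 and 9 without either day 3 library, and 1 of the 14 calls was kept whichever library was left out. Without uninjured replicate 1 the median was 3.95.

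Against day 3, all 43 tested members had both day 7 libraries below both day 3 libraries, as had 23.7% of all genes, with a median log2 fold change of −2.08. The edgeR test called 4 of the 43 lower and 0 higher, against 0.555% of all genes tested that were lower. At an unadjusted p under 0.05 it had 24 lower and 0 higher, and DESeq2 called 18 lower and 0 higher. The 4 were Tpx2 (−3.10 ± 0.54, adjusted p = 0.019), Smc2 (−1.78 ± 0.34, adjusted p = 0.027), Top2a (−2.19 ± 0.44, adjusted p = 0.035) and Cenpe (−2.26 ± 0.48, adjusted p = 0.043). Tpx2 had 151 and 200 CPM at day 3 and 18.4 and 22.4 CPM at day 7. Smc4 moved least, from 108 and 135 CPM to 95.8 and 92.9 CPM (−0.37 ± 0.24), and was not called. This count moved with single libraries: it was 15 without either uninjured library, 1 without day 7 replicate 1 and 0 without day 3 replicate 2 or day 7 replicate 2.

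By week 2 the members were near their uninjured levels. Against uninjured hearts the median log2 fold change was 0.21, 2 genes were lower and 0 higher by edgeR, and 0.454% of all genes tested were lower. At an unadjusted p under 0.05 edgeR had 2 lower and 2 higher, and DESeq2 called 2 lower and 0 higher. Cenpe had 0 counts in both week 2 libraries, against 7.62 and 3.16 CPM before injury (edgeR adjusted p = 0.00066). Its uninjured mean was 32.2 times a floor of 3 counts per library, a bound for counting error only. Kif2c, a kinesin that takes microtubules apart at the kinetochore, had 1 count in each week 2 library against 99 counts in the uninjured pair, a ratio of 47.4 with a 95% interval of 12.8 to 396 that covers counting error only (adjusted p = 0.0065). Ttk also had 0 counts in both week 2 libraries, against 1.76 and 0.0536 CPM before injury, and was not called. Smc4 had 70.0 and 91.4 CPM, above the 54.5 and 47 CPM of uninjured hearts, and was not called. The count was 8 without uninjured replicate 1 and 1 without week 2 replicate 2, the median was −0.37 without uninjured replicate 2 and −0.03 without week 2 replicate 2, and with only these 2 groups in the fit no member was called.

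From day 7 to week 2, both libraries lay below both earlier ones in 38 of 43 members, as in 22.6% of all genes, with a median log2 fold change of −2.39. By edgeR 6 were lower and 0 higher, against 0.454% of all genes tested that were lower. Before adjustment, 23 were lower and 0 higher by edgeR at p under 0.05, and DESeq2 called 16 lower and 0 higher. Among the 6 was Cenpe, with 0 counts at week 2 (edgeR adjusted p = 0.0013). Its day 7 mean was 146 times a floor of 3 counts per library, a bound for counting error only. Kif2c had 1 count in each week 2 library against 566 at day 7 (edgeR adjusted p = 0.0035). That is a ratio of 274 with a 95% counting interval of 75.6 to 2270. The others were Kif22, Top2a, Ube2c and Kif23. Kif22 had 1.17 and 1.24 CPM at week 2 (−4.16 ± 0.66, adjusted p = 0.022), Top2a 10.5 and 8.72 CPM (−2.54 ± 0.45, adjusted p = 0.036), Ube2c 2.44 and 3.99 CPM (−3.09 ± 0.58, adjusted p = 0.042) and Kif23 2.33 and 2.14 CPM (−2.70 ± 0.53, adjusted p = 0.047). The count was 17 without either uninjured library, 2 without day 7 replicate 2 or week 2 replicate 2 and 3 without week 2 replicate 1.

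At week 4 the median against uninjured was −0.75 on the log2 scale, 2 members were lower and 0 higher by edgeR, and 0.474% of all genes tested were lower. Before adjustment, 7 were lower and 2 higher by edgeR at p under 0.05, and DESeq2 called 4 lower and 1 higher. Kif2c had 1 and 2 counts, a ratio of 32.4 to the uninjured pair with a 95% counting interval of 10.8 to 160 (adjusted p = 0.01). Ncapg had 0 counts in both week 4 libraries (edgeR adjusted p = 0.015). Its uninjured mean was 13.5 times a floor of 3 counts per library, a bound for counting error only. Bub1, with 0 and 1 counts, and Mybl2, with 0 and 1 counts, were as low and were not called. The count was 4 without uninjured replicate 1, 5 without uninjured replicate 2 and 0 without week 4 replicate 1, and each call was lost without either week 4 library. Without uninjured replicate 1 the median turned to 0.83.

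Against week 2, Cenpe was higher at week 4 and Ncapg lower, where 0.454% of all genes tested were higher and 0.154% lower. Cenpe had 4.83 and 6.38 CPM at week 4, a mean 33.4 times a floor of 3 counts per library, and 0 counts at week 2 (edgeR adjusted p = 0.0071). Ncapg had 3.89 and 3.54 CPM at week 2, a mean 22.4 times that floor, and 0 counts at week 4 (edgeR adjusted p = 0.033). Both ratios to the floor are bounds for counting error only. The median of the 43 was −0.99. Both calls were lost without week 2 replicate 2, the count was 1 without week 4 replicate 1 and 4 without either uninjured library, and DESeq2 called 6.

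**Figure D4:**
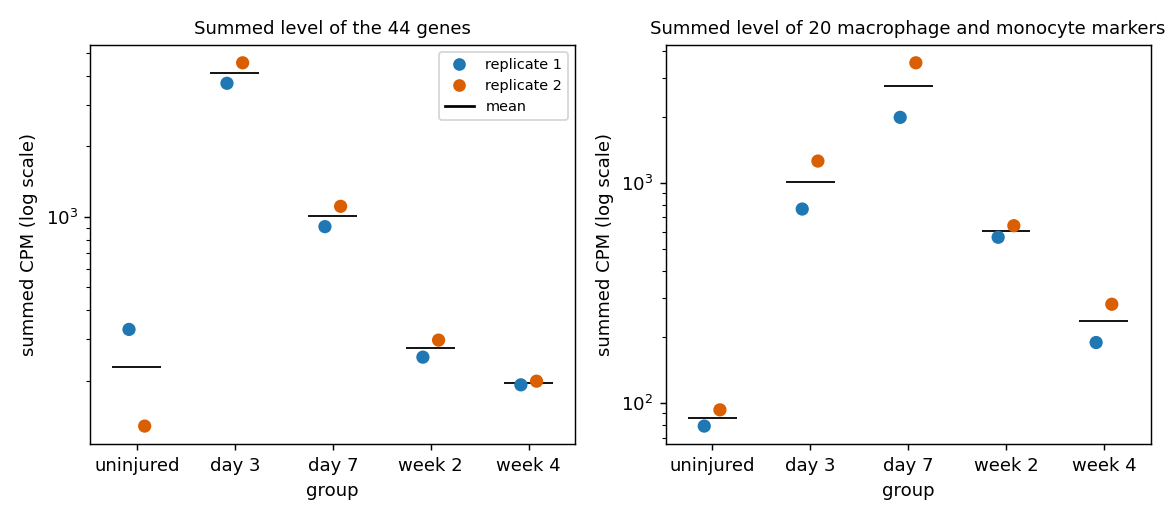
Summed CPM, on log scales, of the 44 mitosis and kinetochore genes (left) and of 20 macrophage and monocyte markers (right) in the 2 RNA libraries of each group, with a line at the group mean. The mitosis genes are highest at day 3 (3720 and 4550 CPM), and the macrophage markers at day 7 (1990 and 3520 CPM).

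Sums of markers of other cell types also differed between the groups, in differing directions. The 20 macrophage and monocyte markers summed to 78.9 and 93.5 CPM in uninjured libraries, 763 and 1260 CPM at day 3, 1990 and 3520 CPM at day 7, 568 and 641 CPM at week 2 and 189 and 282 CPM at week 4. Of them 14 were higher at day 3 and 17 at day 7 than in uninjured hearts by edgeR, against 7.39% and 4.39% of all genes tested. Itgam was at 0 in both uninjured libraries. The sum of the 20 markers peaked at day 7, when that of the mitosis genes stood at 24.4% of its day 3 mean. The 16 endothelial markers summed to 1100 and 945 CPM before injury, 554 and 403 CPM at day 3 and 1250 and 1650 CPM at day 7. The 12 pericyte and smooth muscle markers went from 1100 and 603 CPM to 398 and 309 CPM at day 3. At day 3, 8 of the endothelial and 2 of the pericyte and smooth muscle markers were lower by edgeR, against 4.4% of all genes tested. Neutrophil markers (8) summed to 0.0533 and 0.161 CPM in uninjured libraries, 10.5 and 7.21 CPM at day 3 and 3.64 and 23.3 CPM at day 7. Ly6g was at 0 in every library. The 5 neutrophil markers tested had a median log2 fold change of 5.09 at day 3. By edgeR 0 of them were called, against 7.39% higher and 4.4% lower of all genes tested. Lymphocyte markers (10) reached at most 7.72 CPM, with Cd8a at 0. The 14 cardiomyocyte markers summed to 180 and 229 CPM in uninjured libraries, to 91.7 and 46.1 CPM at day 3 and to 73.4 to 214 CPM at the later times. At day 3, 1 of them was higher and 1 lower by edgeR, against 7.39% and 4.4% of all genes tested. The 7 erythroid genes summed to 4130 and 5990 CPM in uninjured libraries and to 1200 and 142 CPM at day 3, and to 800 to 3720 CPM later. The part of other cell types in the mitotic transcripts was not tested.

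Further genes of the machinery came from lists compiled from knowledge of cell division, also with earlier results of these data known. They were counted at day 3 against uninjured, where 7.39% of all genes tested were higher and 4.4% lower. Of 35 other kinetochore and checkpoint genes 15 were higher and 0 lower by edgeR, and the log2 fold changes had a median of 2.52 (26 higher and 0 lower at an unadjusted p under 0.05, 23 and 0 with DESeq2). Cenph, a subunit of the inner kinetochore, had 0 counts before injury and 12.2 and 15.6 CPM at day 3. Ska1, of the complex that tracks microtubule ends, had 0.160 and 0 CPM and then 20.8 and 18.6 CPM, and Cenpi 1.28 and 0.214 CPM and then 27.4 and 23.5 CPM. Of 27 other spindle and cytokinesis genes 11 were higher and 0 lower (median 4.24), with 19 and 0 at an unadjusted p under 0.05 and 17 and 0 with DESeq2. They include the minus-end motor gene Kifc1 (0 and 0.161 CPM, then 13.2 and 16.7 CPM), Kif14 (0.267 and 0 CPM, then 11.9 and 17.4 CPM) and Depdc1a (1.44 and 0 CPM, then 43.9 and 18.7 CPM). Of 18 other genes of chromosome structure and cohesion 7 were higher and 1 lower (median 2.71), with 10 and 1 at an unadjusted p under 0.05 and 8 and 1 with DESeq2. The 1 lower gene was Pttg1 (securin, the inhibitor of the protease that cleaves cohesin), with 117 and 154 CPM before injury and 64 and 73.6 CPM at day 3 (log2 fold change −0.98 ± 0.29, edgeR adjusted p = 0.048). Among the 7 were the condensin gene Ncaph, from 2.83 and 1.82 CPM to 38 and 46.9 CPM, the cohesin protector Sgo1 from 2.51 and 1.07 CPM to 40.1 and 17.7 CPM, and Incenp, a passenger complex gene, from 7.36 and 1.07 CPM to 30.8 and 56.3 CPM.

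Upstream regulators were counted in the same way. Among 8 CDK1 regulators, 7 of them tested, 3 were higher by edgeR (median log2 fold change 1.60): the activating phosphatase gene Cdc25c, from 0.586 and 0.161 CPM to 15.8 and 24.6 CPM, and the subunit genes Cks2, from 7.30 and 6.86 CPM to 82.2 and 95.7 CPM, and Cks1b, from 31.9 and 36.2 CPM to 138 and 166 CPM. The 16 core subunit genes of the anaphase-promoting complex had a median of 0.37, and 3 were higher, against the same 7.39% of all genes: Anapc15 (2.3 ± 0.44, adjusted p = 0.0053), Cdc27 (1.12 ± 0.33, adjusted p = 0.046) and Cdc26 (1.07 ± 0.26, adjusted p = 0.019). Of 11 DREAM and MuvB genes 0 were higher and 1 lower by edgeR, against 7.39% and 4.4% of all genes tested, with a median of −0.08. At an unadjusted p under 0.05, 3 were higher and 2 lower, and DESeq2 called 2 higher and 1 lower. The 1 gene called lower by edgeR was Rbl2, the p130 pocket protein of the DREAM complex in resting cells, with 71.0 and 91.2 CPM before injury and 33.8 and 25.1 CPM at day 3 (−1.46 ± 0.37, adjusted p = 0.023). Its level was 45.6 and 21.1 CPM at day 7, 94.4 and 61.0 CPM at week 2 and 98.6 and 115 CPM at week 4, so that the 2 day 3 libraries lay below both uninjured and all week 2 and week 4 libraries.

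The 24 DNA replication genes, which act before mitosis, had 18 higher and 0 lower at day 3 by edgeR (median log2 fold change 2.56), against 7.39% of all genes tested that were higher. The counts were 23 and 0 at an unadjusted edgeR p under 0.05, and 22 and 0 with DESeq2. Among them Mcm5 went from 2.83 and 4.82 CPM to 76.8 and 87.4 CPM, Mcm2 from 1.97 and 2.52 CPM to 54.5 and 34.1 CPM, and Rrm2 from 19.5 and 15.3 CPM to 211 and 256 CPM. At day 7 their median was 0.94 against 2.39 for the mitosis genes, with 5 higher and 1 lower, where 4.39% of all genes tested were higher and 2.76% lower. These 2 medians use the same uninjured libraries, and their difference was not tested.

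The ATAC-seq lists show whether the chromatin at the starts of these genes was accessible before and after injury. Of the 38 members with a RefSeq start, 37 had a peak within 1 kb of it in all 10 ATAC-seq lists, the 2 uninjured lists included, that is 97.4% against 47.9% of all 27025 genes with a start. Of these 27025 genes, 11019 entered the RNA test, and the share among those alone was not computed. The number was 37 in each of the 5 groups. The exception, Kif2c, had no peak at its tabled start (chromosome 4, 117178772, minus strand) in any list. A region at chr4:117181489-117183765, which holds the upper end of the gene's deposited span (117159639 to 117182639), was in all 10. Each of the 44 members had at least 1 region in every list within 1 kb of its span. In the 37 genes the peak summit lay at a median of −114 bases from the start, and for 30 of them within 250 bases of it.

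The fold enrichment the authors gave the strongest start peak describes each list on its own, since the lists were not normalized to each other. In the uninjured lists the median over the 37 genes was 36.2 and 33.5, against 37.8 and 38.4 for all genes with a start peak, and 16 and 15 of the 37 lay above the all-gene median. At day 3 the medians were 42.5 and 43.9 against 33.8 and 32.8, and 25 and 26 of the 37 lay above. The numbers above the all-gene median were 24 and 23 at day 7, 21 and 21 at week 2, and 20 and 16 at week 4. Plk1, whose promoter is shown above, had a fold enrichment of 19.0 and 15.4 in the uninjured lists, 48.2 and 44.3 at day 3, 30.6 and 30.3 at day 7, 33.2 and 28.2 at week 2 and 23.9 and 15.4 at week 4. Aurka had 72.7 and 77.7 in the uninjured lists and 70.5 and 70.8 at day 3. Bub1 had 10.9 and 9.78 in the uninjured lists and 21.8 and 17.7 at day 3. Other starts had lower values at day 3, such as Cdca3 (134 and 140 uninjured, 105 and 102 at day 3) and Ect2 (56.5 and 66.2 uninjured, 42.5 and 51.6 at day 3). How many genes went each way was not counted. The lists held 63901 to 107798 peaks, most at day 3, and list length was not separated from these values.

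**Figure D5:**
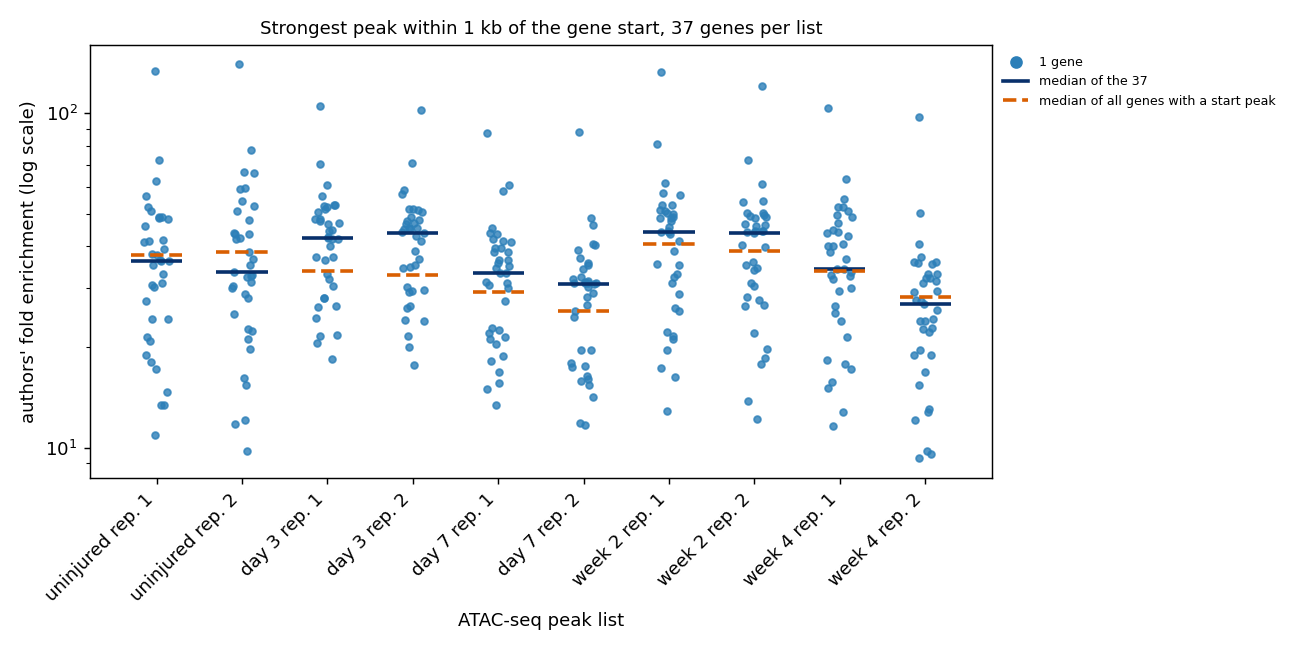
The authors' fold enrichment, on a log scale, of the strongest peak within 1 kb of the gene start for 37 mitosis and kinetochore genes (points) in each of the 10 ATAC-seq peak lists, with the median of the 37 (solid line) and the median of all genes with a start peak (dashed line). The solid line lies below the dashed one in both uninjured lists and above it in both day 3 lists.

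Of the 93 regions near these genes 48 were in all 10 lists (51.6%, against 27.2% of all regions). The regions in all were not limited to those near genes, so these shares and those below are not matched for place. A region was counted as gained where both lists of a group held it and neither uninjured list did. Of the 93, 11 were gained at day 3, 7 at day 7, 3 at week 2 and 3 at week 4. Over all regions the shares gained were 17.2%, 9.29%, 5.08% and 2.76%, against 11.8%, 7.53%, 3.23% and 3.23% near the mitosis genes. The numbers lost were 0 at day 3 and day 7 and 1 at week 2 and week 4, where 1.09%, 2.37%, 2.66% and 3.68% of all regions were lost. That 1 region, at chr9:70405807-70407319, lies beyond the far end of Ccnb2.

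No gained region held the RefSeq start of a member, as far as these have one in the table. A region at chr10:69346763-69349101, centred 4980 bases into Cdk1, was in both lists of all 4 times after infarction and in neither uninjured list, with fold enrichments of 3.12 to 7.63 against 22.2 to 45.8 at the Cdk1 start. A region at chr6:128374233-128376500 near Foxm1 followed the same pattern (3.60 to 11.6). Regions at Prc1 (chr7:80296581-80300209) and at Kif4 (chrX:100696774-100697720) were in both day 3 and both day 7 lists and in none of the other 6, with fold enrichments of up to 10.4 and 8.57. Others gained at day 3 lay at Kif20b, Cenpe, Tpx2, Ube2c, Smc4 and Kif18b and at a second place in Kif4, and 1 at Mki67 was gained at day 7 only. Keeping only peaks with a −log10 q of at least 10 left 3 gained regions at day 3, 4 at day 7 and 1 at week 4.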

How the data were processed

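RNA-seq and ATAC-seq were each run on 10 libraries, 2 per group, and groups were read from the labels. Per gene, the deposited RNA values are expected counts without scaling between libraries. Each deposited ATAC-seq list gives, per peak, a fold enrichment (a ratio), the −log10 of p and q, a score, and a summit offset. The submitters' processing notes name the builds mm10 and GRCm38 and, with no roles, the tools STAR 2.5.3a, Bowtie2 2.3, Trim Galore 0.6, MACS2, FastQC and DESeq2. How reads were counted, on which strand, and which thresholds defined peaks is not given in the sources used here. Of the 44 members, 13 had counts that were not whole in some library and 13 overlap another gene, so reads of such genes are uncertain.

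Counts were rounded and fitted in R 4.3.3 with edgeR 4.0.16 (TMM, filterByExpr by group, 14968 genes kept, robust quasi-likelihood fit of all 10 libraries, 5 residual degrees of freedom), with Benjamini-Hochberg adjustment over all genes tested in each comparison at 0.05. The fit was tested on simulated data. DESeq2 1.42.0 was an alternative. Errors are SD over the 2 libraries or an SE. The SE was taken as the absolute log2 fold change divided by the square root of the quasi-likelihood F statistic. A floor of 3 counts per library stood in for groups at 0, and intervals and floors cover counting error only, since PCR reads without molecular identifiers are not independent molecules. Peaks of the 10 lists were merged where they overlapped by at least 1 base and counted at a gene within 1 kb. Promoter motifs were exact matches on both strands, and where a symbol had more than 1 promoter entry the first was used. The members and gene lists were chosen with earlier results of these data known. All 44 members were named, with up to 3 passing genes of each other list by the size of the change at day 3.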

Additional observations from a re-analysis of the deposited data

How the results depend on the processing

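The day 3 count of 29 kept within 1.5 times under every alternative run, and the numbers of genes with a start peak (37 in each group) were identical under them. The other counts of called members moved. With DESeq2 they were 22 at day 7 against uninjured, 5 at week 4 against uninjured, 18 at day 7 against day 3, 16 at week 2 against day 7 and 6 at week 4 against week 2. With no filter on low counts they were 37 at day 7, 4 at week 2 and 10 at week 4 against uninjured, 35 at day 7 against day 3, 32 at week 2 against day 7 and 13 at week 4 against week 2. With only the 2 groups compared in the fit they were 1, 0 and 0 at day 7, week 2 and week 4 against uninjured, and 17, 1 and 0 for the consecutive times. The cause of these moves was not tested.

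Leaving out each library in turn gave 20 to 30 called members at day 3, 2 to 21 at day 7, 1 to 8 at week 2 and 0 to 5 at week 4 against uninjured, 0 to 15 at day 7 against day 3, 2 to 17 at week 2 against day 7 and 0 to 4 at week 4 against week 2. The median log2 fold changes ran from 3.88 to 6.23, 1.67 to 3.95, −0.37 to 1.11 and −1.48 to 0.83 against uninjured, and from −2.33 to −1.89, −2.57 to −2.06 and −1.08 to −0.69 between consecutive times. The week 2 median turned negative without uninjured replicate 2 (−0.37) and without week 2 replicate 2 (−0.03), and the week 4 median positive without uninjured replicate 1 (0.83).

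Replicate numbers showed no pairing of the samples. For each group the log CPM of replicate 1 minus the group mean was taken gene by gene. Between groups these deviations correlated at −0.02 to 0.03 over 10 group pairs, with 0 over 0.1. With the replicate number as a block 28 members were called at day 3, 14 at day 7, 2 at week 2 and 2 at week 4, and 4, 6 and 2 between consecutive times.

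In an alternative chosen after seeing the data, the summed level at day 3 over uninjured, 18 with all libraries, was 12.5 to 32.2 with 1 library of these groups left out.

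With a −log10 q of at least 10, gained regions were 3 at day 3, 4 at day 7 and 1 at week 4, and 0 were lost at week 2 and week 4. With 1 list left out, 11 to 18, 7 to 12, 3 to 8 and 3 to 7 regions were gained at the 4 times and 0 to 4, 1, 1 to 2 and 1 to 3 lost. With 2 libraries a group, genes with few counts before injury, such as Spag5 and Ttk, have wide errors.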
